A study of Mus musculus with 8 samples.

Results

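The lysosomal enzyme and membrane genes described here are 31 mouse genes chosen by symbol from a table of read counts for 55291 genes. They comprise 9 proteases, 6 glycosidases, 5 genes of lipid handling, 4 membrane glycoproteins, 5 subunits of the vacuolar proton pump (V-ATPase) and 2 regulators. All 31 were present and all passed the filter on low counts, which left 17418 genes for testing. RNA sequencing was performed on bone marrow leukaemic granulocyte-macrophage progenitors (L-GMP), called leukaemia stem cells by the labels, from mice with acute myeloid leukaemia driven by the fusion oncogene MLL-AF9. The sort kept c-Kit+, CD16/32+, CD34+ cells that lacked Sca-1 and lineage markers. The 4 KO libraries came from Dek fl/fl mice with Mx1-Cre, whose Cre recombinase is driven by an interferon-inducible promoter that is active beyond the blood. The 4 FL libraries came from Dek fl/fl mice with no Cre named, so MLL-AF9 and the floxed Dek alleles were common to both groups. Because Mx1-Cre was present in KO alone, the transgene and the loss of Dek cannot be told apart. The labels give neither the age of the mice, nor the exons that were floxed, nor how MLL-AF9 was introduced. They also do not state that the libraries of a group stem from separate mice, so the tests see only the variation among these libraries, part or all of which may be technical.

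Lysosomes are acidic organelles in which hydrolases break down proteins, sugar chains and lipids that arrive by endocytosis, phagocytosis or autophagy. The V-ATPase pumps in the protons that the hydrolases need, heavily glycosylated proteins such as LAMP1 line the membrane, and the transcription factor TFEB switches on many of these genes together through a short DNA motif called the CLEAR element. In myeloid cells some of these proteases also serve antigen processing and the activation of the serine proteases stored in granules.

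Dek, the deleted gene and a chromatin protein, had 21.2, 21.4, 30.997 and 16.7 CPM (counts per 1000000, scaled by TMM factors) in KO libraries and 129, 137, 163 and 178 CPM in FL libraries. No library overlapped, in the direction of the labels (log2 fold change -2.75, SE 0.19, adjusted p = 1.7e-05). Library totals were 33941940 to 49736592 counts in KO and 44086524 to 58660705 in FL. KO libraries held more detected genes, 30606 to 37801, than FL libraries with 24125 to 26053, and KO libraries 2 and 3 were the highest, with 36946 and 37801. The genes of the sorted progenitor and its granules were present in every library. Over 10 genes, their summed levels were 28512 to 32625 CPM in KO and 22171 to 44202 CPM in FL. Of the 10, 2 were higher and 3 lower in KO, against 13.0% and 14.9% of all tested genes. Mpo, the granule enzyme myeloperoxidase, had 10395 to 13686 CPM in KO and 5484 to 15474 CPM in FL. It was not called (log2 fold change 0.08, adjusted p = 0.85), nor was Elane (0.20, adjusted p = 0.52). Ctsg, another of the 10, had 4630 to 4927 CPM in KO and 6278 to 9938 CPM in FL. It was lower in KO (-0.83, adjusted p = 0.0033).

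Lysosomal transcripts were mostly lower in KO L-GMP. By the quasi-likelihood test of edgeR, adjusted by Benjamini-Hochberg over all tested genes, 22 of the 31 genes were lower in KO (71.0%), against 14.9% of all tested genes. Higher calls numbered 0 of 31, against 13.0% of all tested genes, and 0 at an unadjusted p under 0.05 in edgeR, DESeq2 and limma-voom alike. In 19 of the 31 genes no KO library reached the lowest FL library (61.3%), against 15.8% of all tested genes. The median log2 fold change was -0.62 over the 31 genes and 0.05 over all tested genes, and 28 of the 31 lay below the median of all tested genes. The summed level of the 31 genes was 6769, 7038, 7145 and 8659 CPM in KO libraries and 13840, 13341, 14691 and 13229 CPM in FL libraries. The strongest calls were those of the membrane protein gene Lamp1, the protease genes Ctsz, Ctsb, Ctsh and Ctsa, and the glycosidase gene Man2b1. No gene of lipid handling, no V-ATPase gene and no regulator was among them. Lamp1, Ctsz, Ctsb and Man2b1 had a mean of 500 CPM or more, a level at which 86.8% of all tested genes were lower. In bulk samples, fewer cells of a type and less RNA per cell cannot be told apart.

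**Figure D1:**
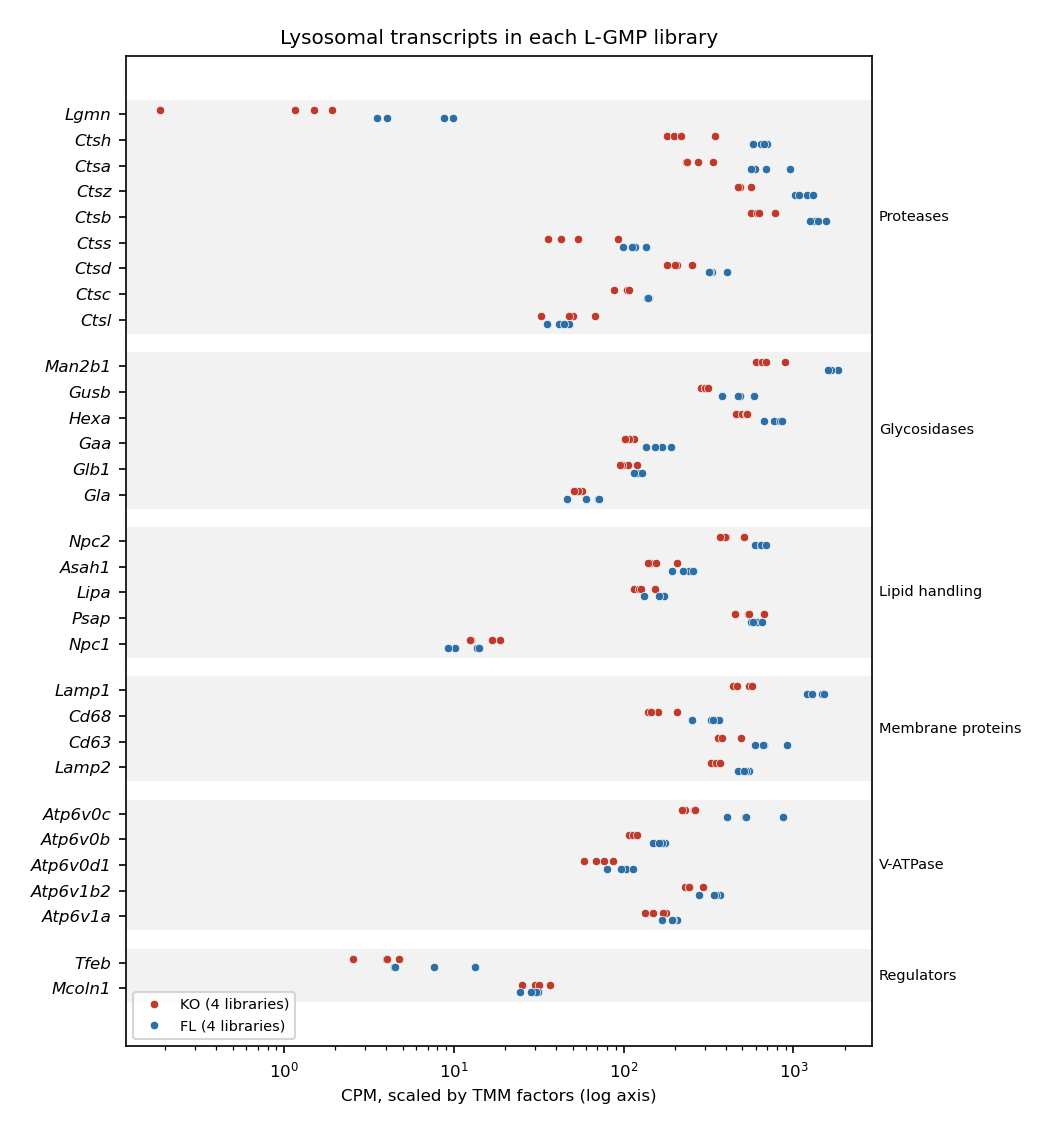
Level of each of the 31 lysosomal genes in each library, in TMM-scaled CPM on a log axis, with KO points above FL points and the genes grouped by role. In 19 genes all 4 KO points lie left of all 4 FL points, whereas Ctsl, Npc1 and Mcoln1 overlap with a log2 fold change above 0.

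Abundant genes were lower in KO as a whole, and most of the lysosomal genes are abundant in these cells. At a mean of 500 CPM or more over all libraries, 7 of 8 lysosomal genes were called lower, against 86.8% of all 273 tested genes of that class, with a median log2 fold change of -0.97 for the 8 and -1.09 for the class. Between 200 and 500 CPM, 8 of 8 lysosomal genes were called lower (median -0.84), against 66.5% of 526 tested genes (median -0.58). Between 50 and 200 CPM, 6 of 10 lysosomal genes were called lower (median -0.45), against 25.8% of 2987 tested genes (median -0.16). Under 50 CPM, 1 of 5 lysosomal genes was called lower (median 0.11), against 9.08% of 13632 tested genes (median 0.15). Against the abundant genes around them, the 8 most abundant lysosomal genes were therefore near the background, and the share of 71.0% cannot be read against 14.9% alone. The genes farthest below the median of their class were Lgmn (by 2.60 on the log2 scale), Tfeb (by 1.12), Ctsh (by 0.89), Ctss (by 0.88), Ctsa (by 0.80) and Atp6v0c (by 0.68). Psap, Npc2 and Hexa lay farthest above it, by 0.97, 0.47 and 0.46.

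**Figure D2:**
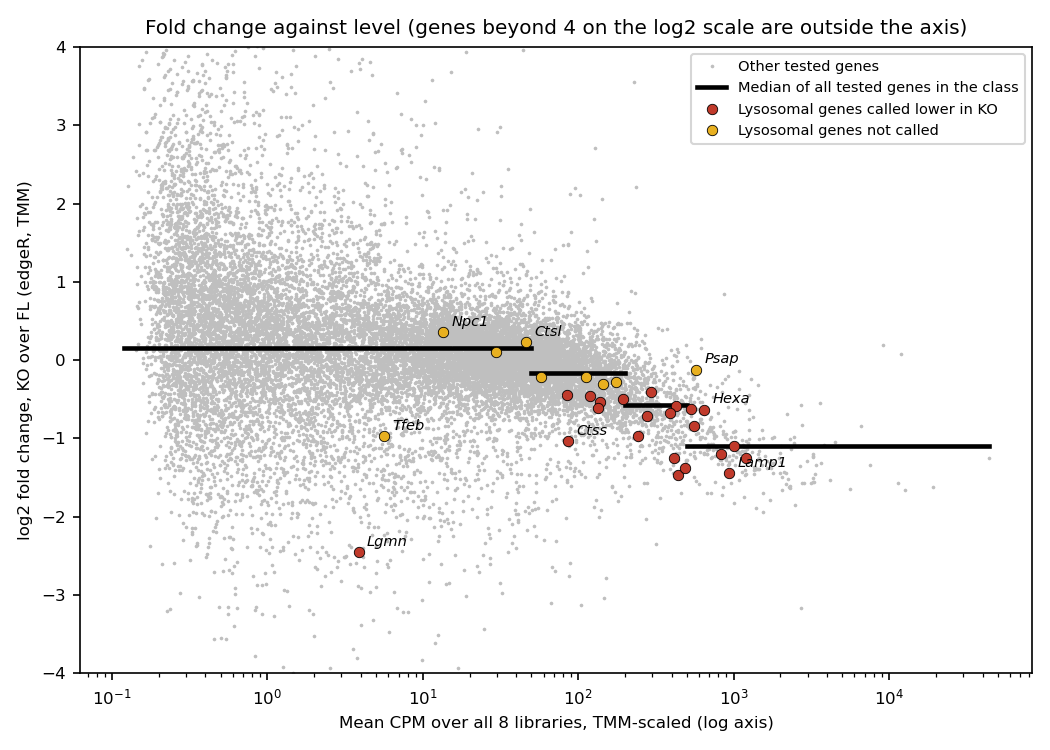
Log2 fold change of KO over FL (TMM) against mean level in CPM over all 8 libraries on a log axis, with the 22 lysosomal genes called lower in red, the 9 not called in yellow and other tested genes in grey. The black lines are the medians of all tested genes in 4 classes of level, and they step down to -1.09 at 500 CPM or more.

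The scaling between libraries moved these values as well. TMM factors were 1.20 to 1.26 in KO and 0.68 to 0.91 in FL, and the median log2 fold change of all tested genes was 0.64 when libraries were scaled by total counts instead. Under total counts the median of the 31 genes was -0.02. The distance to all genes was -0.66, against -0.67 under TMM. Library factors shift all genes nearly alike, so this distance could hardly move and its agreement tests nothing. Called lower were then 8 of 31 (background 5.09%), namely Ctsa, Ctsb, Ctsh, Ctsz, Lgmn, Man2b1, Lamp1 and Atp6v0c, and called higher were 5 of 31 (background 51.7%), namely Ctsl, Glb1, Npc1, Psap and Mcoln1. A loess normalisation, which removes a trend of the difference with level, left 8 of 31 lower (background 11.2%), namely Ctsa, Ctsh, Ctss, Ctsz, Lgmn, Lamp1, Cd68 and Atp6v0c. It left Psap higher (background 11.0%). The median of the 31 genes was then -0.20, and its distance to all genes was -0.22. The genes lower under all 3 scalings were Ctsa, Ctsh, Ctsz, Lgmn, Lamp1 and Atp6v0c, 6 of 31, against 4.44% of all tested genes. All of these but Lgmn had a mean above 200 CPM, where lower calls under TMM were common. The share lower under all 3 scalings among genes of like level was not computed. When the count of detected genes entered as a covariate, which follows the groups closely, edgeR called 0 of 31 lower (background 0.563%), with 10 at an unadjusted p under 0.05. Without KO libraries 2 and 3, 10 of 31 were lower (background 7.31%). The 12 calls lost in that fit, at adjusted p of 0.054 to 0.246, were Asah1, Atp6v0b, Atp6v0d1, Atp6v1b2, Cd63, Ctsc, Ctsd, Ctss, Gaa, Gusb, Lgmn and Npc2. Their log2 fold changes there were all below 0, from -2.61 (Lgmn) to -0.35 (Atp6v1b2), for example -0.50 for Ctsc, -0.68 for Gusb and -0.58 for Gaa, with 6 libraries in the fit.

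**Figure D3:**
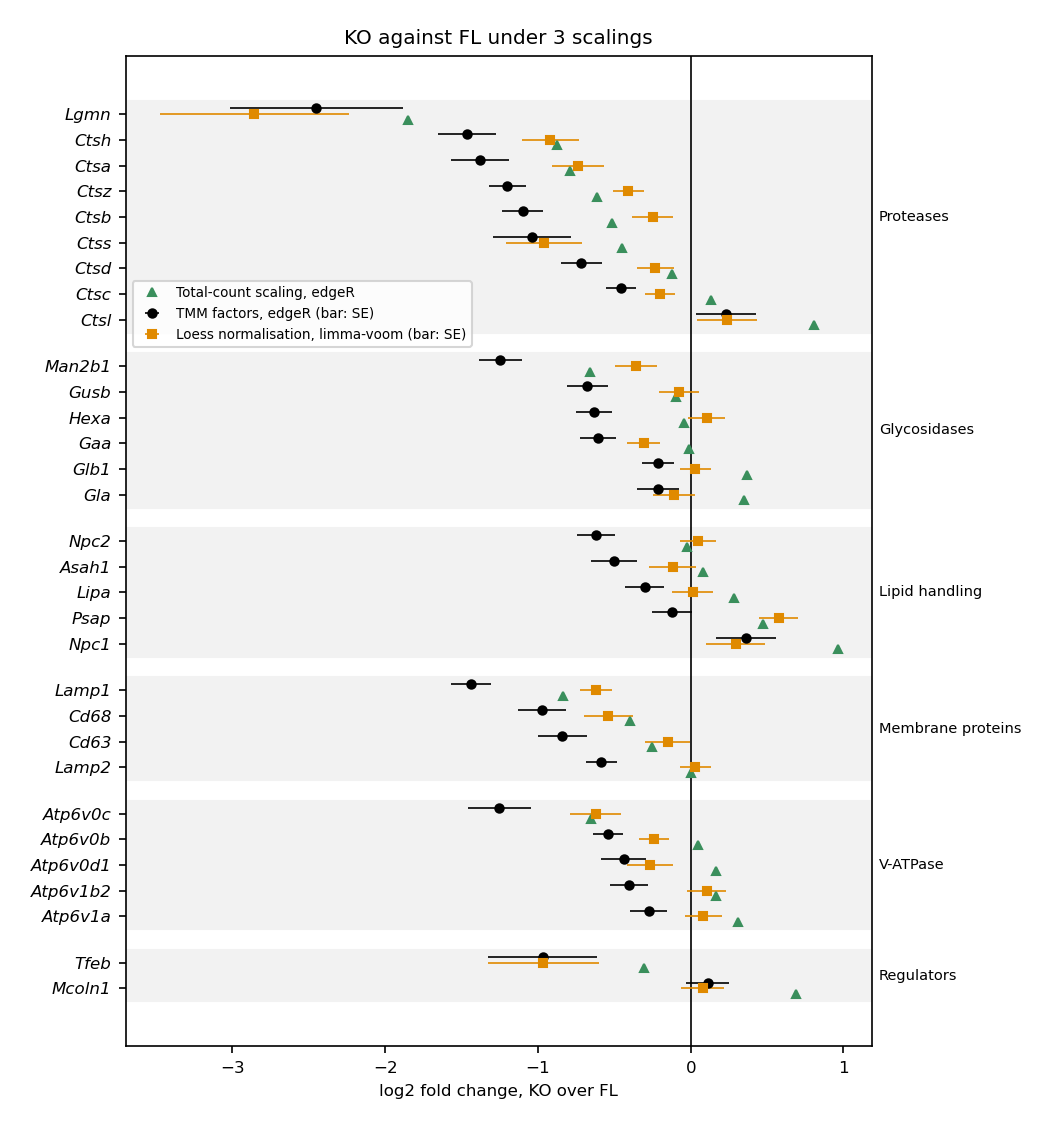
Log2 fold change of KO over FL for each lysosomal gene under TMM factors (black, edgeR), loess normalisation (orange, limma-voom) and total-count scaling (green, edgeR), with SE bars on the black and orange points. Ctsa, Ctsh, Ctsz, Lgmn, Lamp1 and Atp6v0c are below 0 and called under all 3, whereas Psap is at -0.12, 0.57 and 0.48.

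Promoter sequences are shown for the 4 genes with the smallest p among those called lower with no overlap between groups and with an entry in the RefSeq promoter table, because TFEB acts through such sequence. Each is the 200 bases before a transcription start in RefSeq on GRCm38.p6, 5′ to 3′ on the strand of the gene, and capitals mark CACGTG, the E-box core of the CLEAR element. The window of Lamp1 is chr8:13158961-13159160 on the plus strand, that of Ctsz chr2:174439040-174439239 on the minus strand, and that of Man2b1 chr8:85083069-85083268 on the plus strand. The window of Ctsa is chr2:164833573-164833772 on the plus strand and belongs to the start, of 2 in the table, that holds the motif.
Lamp1: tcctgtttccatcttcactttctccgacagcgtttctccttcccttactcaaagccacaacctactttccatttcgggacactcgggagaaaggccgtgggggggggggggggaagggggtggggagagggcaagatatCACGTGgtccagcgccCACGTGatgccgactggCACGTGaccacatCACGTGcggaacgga
Ctsz: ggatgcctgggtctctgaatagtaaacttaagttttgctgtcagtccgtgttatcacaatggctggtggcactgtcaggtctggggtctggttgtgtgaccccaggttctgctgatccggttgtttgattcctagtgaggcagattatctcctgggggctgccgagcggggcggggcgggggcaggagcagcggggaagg
Man2b1: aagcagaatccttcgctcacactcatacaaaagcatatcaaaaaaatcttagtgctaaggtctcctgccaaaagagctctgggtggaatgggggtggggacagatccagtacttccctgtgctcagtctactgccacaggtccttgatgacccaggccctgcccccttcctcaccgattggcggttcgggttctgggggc
Ctsa: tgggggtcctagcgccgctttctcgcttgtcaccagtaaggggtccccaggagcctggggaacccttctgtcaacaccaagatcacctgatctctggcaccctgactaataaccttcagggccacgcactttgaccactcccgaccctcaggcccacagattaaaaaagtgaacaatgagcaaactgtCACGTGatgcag

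Lamp1 carried CACGTG 4 times, with the motif beginning 61, 45, 28 and 15 bases before the start, and Ctsa carried it 12 bases before the start and again from base 5 after it. Ctsz and Man2b1 held no CACGTG in the window from 250 bases before to 50 after the start. Both strands read alike for this motif because it is a palindrome. The table matched 26 of the 31 genes in 33 windows, with no entry for Asah1, Atp6v1b2, Ctsb, Ctsh and Npc1. CACGTG was present for 12 of the 26 (46.2%), against 8.09% of 27025 genes in the table and 13.8% of the 3013 matched genes tested at 50 CPM or more. The longer palindrome TCACGTGA, which contains the E-box and forms the inner part of the CLEAR element, was present for Ctsa, Ctsd, Gla, Mcoln1, Atp6v0d1 and Atp6v1a (23.1%), against 1.12% of genes in the table and 2.75% of those at 50 CPM or more. Of the 12 genes with CACGTG, 7 were called lower (median log2 fold change -0.49), and of the 14 without it, 11 were called lower (median -0.76). The sets differed in level. Those without it included Psap, Ctsz, Cd63, Npc2, Man2b1 and Hexa, at 500 CPM or more, where 86.8% of all tested genes were lower. Of those with it, only Lamp1 was at that level. The sets were not compared at like level, so their difference cannot be read as one of the motif. A match describes letters in a window, not binding, and the absence of one says nothing of TFEB.

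Among the 9 proteases, 8 were lower in KO and 1, Ctsl, was not called, with a median log2 fold change of -1.10 under TMM, -0.41 after loess normalisation (5 lower) and 5 lower with 1 higher under total counts. For this and the other roles, the shares of all tested genes called lower were 14.9% (TMM), 11.2% (loess) and 5.09% (total counts). Those called higher were 13.0%, 11.0% and 51.7%. Under TMM the share lower rose with level, from 9.08% under 50 CPM to 86.8% at 500 CPM or more. Ctsz encodes cathepsin Z, a carboxypeptidase, on chromosome 2 from 174427493 to 174439039 (mm10). It had 485, 481, 473 and 564 CPM in KO libraries and 1194, 1027, 1299 and 1083 CPM in FL libraries. KO library 4 stood above the other KO libraries, and all lay far below the lowest FL library (log2 fold change -1.20, SE 0.12, adjusted p = 1.1e-04), and the call held in 18 of 19 alternatives. Ctsa encodes cathepsin A, a carboxypeptidase that also protects beta-galactosidase and neuraminidase in a complex, on chromosome 2 from 164832873 to 164841032. It had 233, 237, 274 and 334 CPM in KO libraries and 596, 691, 955 and 559.6 CPM in FL libraries. The groups did not overlap, with a log2 fold change of -1.38 (SE 0.19, adjusted p = 4.8e-04), with -0.74 after loess normalisation (adjusted p = 0.011).

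Ctsh encodes cathepsin H, an aminopeptidase, on chromosome 9 from 90054152 to 90076089. It had 179, 198, 217 and 343 CPM in KO libraries and 642, 695, 576 and 675 CPM in FL libraries. KO library 4 stood above the other KO libraries but well under every FL library (log2 fold change -1.47, SE 0.19, adjusted p = 4.0e-04). Ctsb encodes cathepsin B, a major cysteine protease of the lysosome, on chromosome 14 from 63122462 to 63145923. It had 560.5, 613, 624 and 776 CPM in KO libraries and 1554, 1319, 1395 and 1245 CPM in FL libraries. The groups did not overlap (log2 fold change -1.10, SE 0.13, adjusted p = 2.7e-04), but the value was -0.25 and not called after loess normalisation (adjusted p = 0.20). Tested genes of its class of level had a median of -1.09.

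Lgmn encodes legumain, an asparaginyl endopeptidase that processes the cathepsins into their mature forms. It was scarce, with 0.186, 1.16, 1.505 and 1.93 CPM in KO libraries and 4.06, 9.83, 3.55 and 8.75 CPM in FL libraries. Every KO library was below every FL library, and the log2 fold change of -2.45 (SE 0.57, adjusted p = 0.0087) had the widest error of the 31. It was -2.61 without KO libraries 2 and 3, where the call was lost (adjusted p = 0.062). Ctss encodes cathepsin S, which trims the invariant chain of MHC class II and stays active at neutral pH. It had 35.7, 53.8, 42.8 and 92.7 CPM in KO libraries and 116, 112, 135 and 98.8 CPM in FL libraries. KO library 4 came close to the lowest FL library without overlapping it (log2 fold change -1.04, SE 0.25, adjusted p = 0.012), and the value was -0.45 and not called under total counts (adjusted p = 0.146).

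Ctsd encodes cathepsin D, the main aspartic protease of the lysosome, and had 206, 202, 179.8 and 251 CPM in KO libraries and 331, 323, 406 and 316 CPM in FL libraries. The groups did not overlap (log2 fold change -0.72, SE 0.13, adjusted p = 0.0028), a call that was lost under total counts (-0.13, adjusted p = 0.50) and after loess normalisation (-0.23, adjusted p = 0.20). Ctsc encodes cathepsin C, the dipeptidyl peptidase that activates the granule serine proteases, and had 88.2, 104, 104 and 107 CPM in KO libraries and 140.1, 139, 137 and 139 CPM in FL libraries. It too had no overlap, and a log2 fold change of -0.46 (SE 0.099, adjusted p = 0.0060), with 0.13 under total counts, where the call was lost (adjusted p = 0.45). Ctsl encodes cathepsin L, an endopeptidase of broad activity. It had 50.1, 47.6, 32.6 and 68.0 CPM in KO libraries and 47.5, 41.7, 44.5 and 35.3 CPM in FL libraries. The groups overlapped, with a log2 fold change of 0.23 (SE 0.19, adjusted p = 0.40), with 0.81 under total counts (adjusted p = 0.0080).

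The proteases were also compared as shares of their summed counts in the same library, which do not depend on the scaling between libraries. Ctsl made up 2.73%, 2.46%, 1.67% and 2.68% of the sum in KO libraries and 1.03%, 0.957%, 0.899% and 0.849% in FL libraries. Its share averaged 2.38% ± 0.490 in KO and 0.933% ± 0.0766 in FL (SD, n = 4 each), with no overlap. Ctsc had 4.94% ± 0.551 in KO and 3.08% ± 0.247 in FL, and Ctsd had 10.2% ± 0.832 in KO and 7.60% ± 0.448 in FL (SD, n = 4 each), again with every KO library above every FL library. For Ctsb, the largest share at 31.2% ± 0.763 in KO and 30.5% ± 2.26 in FL, and for Ctsa, Ctsh, Ctss, Ctsz and Lgmn the groups overlapped. Within a sum that was lower in KO, the genes with the smallest falls or none take larger shares by construction, so these shares restate the fold changes on a scale that needs no library factors. Ctsc and Ctsd were themselves lower in KO under TMM.

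**Figure D4:**
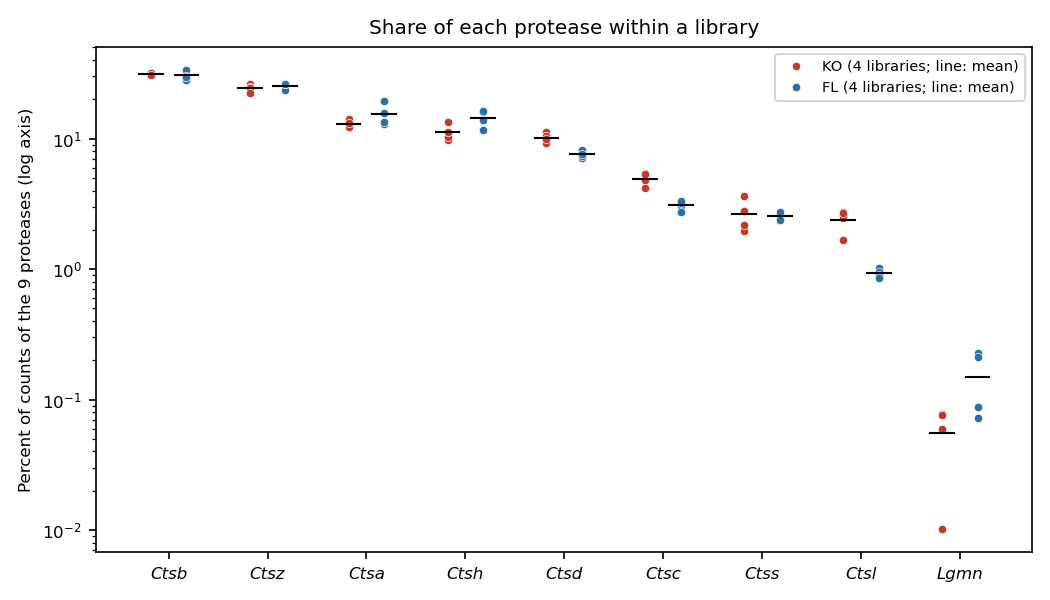
Share of each of the 9 proteases in their summed counts within a library, in percent on a log axis, with KO points left of FL points and lines at the means. Ctsl, Ctsc and Ctsd have every KO point above every FL point, and the other 6 overlap.

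Among the 6 glycosidases, 4 were lower in KO and 2 were not called, with a median log2 fold change of -0.62. After loess normalisation 0 of 6 were lower in limma-voom, and under total counts 1 was lower and 1 higher. Man2b1 encodes lysosomal alpha-mannosidase, which trims mannose from glycoproteins, on chromosome 8 from 85083270 to 85098282. It had 601, 652, 692 and 891 CPM in KO libraries and 1820, 1635, 1668 and 1603 CPM in FL libraries. Library 4 was the highest of the KO libraries and still far below every FL library (log2 fold change -1.25, SE 0.14, adjusted p = 1.8e-04). The call was lost after loess normalisation, at -0.36 (adjusted p = 0.083). Hexa, the alpha subunit of the enzyme that clears GM2 ganglioside, had 459, 501, 527 and 531 CPM in KO libraries and 772, 837, 668 and 853 CPM in FL libraries. It did not overlap between groups (log2 fold change -0.63, SE 0.12, adjusted p = 0.0027), but lay above the median of genes of its level and was at 0.10 after loess normalisation.

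Gusb encodes beta-glucuronidase and had 285, 302, 302 and 313 CPM in KO libraries and 487, 474, 586 and 378 CPM in FL libraries, with a log2 fold change of -0.68 (SE 0.13, adjusted p = 0.0040). Gaa encodes the acid alpha-glucosidase that degrades glycogen and had 115, 107, 102 and 101 CPM in KO libraries and 169, 136, 189 and 153 CPM in FL libraries, with a log2 fold change of -0.61 (SE 0.12, adjusted p = 0.0038). In both genes the KO libraries all lay under the FL range, and both calls were lost under total counts and after loess normalisation. Glb1, beta-galactosidase, averaged 105 ± 10.7 CPM in KO and 122 ± 5.12 CPM in FL, and Gla, alpha-galactosidase A, averaged 53.7 ± 2.37 CPM in KO and 62.3 ± 11.9 CPM in FL (SD, n = 4 each). Their log2 fold changes were -0.22 (SE 0.10, adjusted p = 0.15) and -0.21 (SE 0.14, adjusted p = 0.28), turned to 0.37 and 0.35 under total counts, and the groups overlapped in both. Without FL library 4, which had the lowest level, Gla was called lower at -0.35 (adjusted p = 0.032), and Glb1 was called lower by limma-voom with quality weights (adjusted p = 0.044).

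Among the 5 genes of lipid handling, 2 were lower in KO and 3 were not called, with a median log2 fold change of -0.30, and 0 were lower after loess normalisation or under total counts. Psap was higher after loess normalisation, and Psap and Npc1 were higher under total counts. Npc2 encodes the soluble protein that hands cholesterol to NPC1. It had 401, 398, 369 and 511 CPM in KO libraries and 597, 644, 646 and 689 CPM in FL libraries. The groups did not overlap (log2 fold change -0.62, SE 0.13, adjusted p = 0.0044). Asah1 encodes acid ceramidase and had 143, 155, 139.9 and 207 CPM in KO libraries and 242, 257, 192 and 223 CPM in FL libraries. KO library 4 lay above FL library 3. Asah1 had a log2 fold change of -0.50 (SE 0.15, adjusted p = 0.028), and the call was lost when any of KO libraries 1, 2 and 3 or FL libraries 1 and 2 was left out (adjusted p 0.059 to 0.0796).

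Psap encodes prosaposin, the precursor of the saposins that present sphingolipids to their hydrolases. It had 539, 548, 452 and 668 CPM in KO libraries and 614, 559, 575 and 650.2 CPM in FL libraries, so that KO library 4 was the highest of all 8. It had a log2 fold change of -0.12 (SE 0.13, adjusted p = 0.53), the smallest difference among the 8 most abundant lysosomal genes, and it was higher in KO after loess normalisation (0.57, SE 0.13, adjusted p = 0.0085) and under total counts (0.48, adjusted p = 0.013). Lipa, lysosomal acid lipase, averaged 129.7 ± 16.4 CPM in KO and 159.6 ± 18.8 CPM in FL (SD, n = 4 each), with a log2 fold change of -0.30 (SE 0.13, adjusted p = 0.10). It was called lower at -0.40 without KO library 4 (adjusted p = 0.038) and without FL library 3 (adjusted p = 0.0396), and at -0.38 by limma-voom with quality weights (adjusted p = 0.018). Npc1, the membrane protein that exports cholesterol, had 12.6, 16.9, 12.5 and 18.6 CPM in KO libraries and 10.1, 13.7, 9.22 and 14.1 CPM in FL libraries. The groups overlapped (log2 fold change 0.36, SE 0.20, adjusted p = 0.19), so the 2 cholesterol genes lay on opposite sides of 0 under TMM, with Npc2 called and Npc1 not; the difference between them was not tested.

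All 4 membrane glycoproteins were lower in KO, with no overlap between groups and a median log2 fold change of -0.91, of which 2 were lower after loess normalisation and 1 under total counts. Of all tested genes, 14.9% were lower under TMM, and in 15.8% every KO library was below every FL library. The share lower under TMM was 86.8% at the level of Lamp1 and Cd63, and 66.5% at the level of Lamp2 and Cd68. Lamp1 encodes a main protein of the lysosomal membrane, on chromosome 8 from 13159161 to 13175338, and its promoter is the one shown above with 4 E-boxes. It had 439, 468, 549.8 and 566 CPM in KO libraries and 1207, 1284, 1480.1 and 1508 CPM in FL libraries. No KO library came near an FL library (log2 fold change -1.44, SE 0.13, adjusted p = 6.7e-05), the smallest p of the 31. It was at -0.62 after loess normalisation, called, and its adjusted p was 0.074 with genes detected as a covariate, the only alternative of 19 without the call. Lamp2, its partner, which also serves chaperone-mediated autophagy, had 327, 328, 348 and 369 CPM in KO libraries and 544, 526, 472 and 514 CPM in FL libraries. The groups stood apart (log2 fold change -0.58, SE 0.10, adjusted p = 0.0021), but the value was 0.03 after loess normalisation and 3.8e-04 under total counts, both not called.

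Cd68 encodes a mucin-like glycoprotein used as a marker of macrophages and had 139.9, 160.2, 144 and 207 CPM in KO libraries and 364, 326, 335 and 254 CPM in FL libraries. No library overlapped (log2 fold change -0.97, SE 0.16, adjusted p = 0.0012), and the call held after loess normalisation and was lost under total counts (-0.40, adjusted p = 0.089). Cd63 encodes a tetraspanin of late endosomes, secretory granules and exosomes and had 364, 357, 377 and 490.0 CPM in KO libraries and 671, 662, 919 and 594 CPM in FL libraries. KO library 4 and FL library 3 stood above the rest of their groups (log2 fold change -0.84, SE 0.16, adjusted p = 0.0033), and the call was lost under total counts and after loess normalisation.

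Of the 5 V-ATPase genes, 4 were lower in KO and 1 was not called, with a median log2 fold change of -0.44; Atp6v0c alone was lower after loess normalisation and under total counts, and the other 4 were above 0 under total counts. Atp6v0c encodes the proteolipid subunit of the proton-conducting ring, on chromosome 17 from 24163866 to 24169702. It had 259.96, 229, 262 and 221 CPM in KO libraries and 516, 406, 869 and 525 CPM in FL libraries. FL library 3 was far above the other FL libraries, and every KO library lay below the lowest of them (log2 fold change -1.25, SE 0.21, adjusted p = 0.0015). Atp6v0b, another proteolipid of the ring, had 109, 107, 113 and 121 CPM in KO libraries and 149, 174, 169 and 162 CPM in FL libraries. The groups did not overlap, and the libraries within each were close together (log2 fold change -0.54, SE 0.098, adjusted p = 0.0025).

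Atp6v0d1, which links the ring to the stalk, averaged 72.3 ± 11.8 CPM in KO and 97.97 ± 14.4 CPM in FL, and Atp6v1b2, a subunit of the ATP-hydrolysing head, averaged 253 ± 28.7 CPM in KO and 335 ± 38.5 CPM in FL (SD, n = 4 each). KO library 4 overlapped the FL range in both. Atp6v0d1 had a log2 fold change of -0.44 (SE 0.15, adjusted p = 0.046), and its call was lost without any of KO libraries 1, 2 and 3 and FL libraries 2, 3 and 4 (adjusted p 0.067 to 0.119). Atp6v1b2 had -0.41 (SE 0.13, adjusted p = 0.033), and its call was lost without any of KO libraries 1, 2 and 3 and FL libraries 1, 2 and 3 (adjusted p 0.055 to 0.0986). Atp6v1a, the catalytic subunit of the head, averaged 158 ± 19.8 CPM in KO and 191 ± 16.0 CPM in FL (SD, n = 4 each), with a log2 fold change of -0.28 (SE 0.12, adjusted p = 0.11), and was called lower by limma-voom with quality weights (adjusted p = 0.029).

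Neither regulator was called. Tfeb encodes the transcription factor that binds the CLEAR element and had 4.01, 4.02, 4.76 and 2.54 CPM in KO libraries and 4.46, 4.53, 7.66 and 13.3 CPM in FL libraries. FL libraries 3 and 4 were above all others, and KO library 3 overlapped FL libraries 1 and 2 (log2 fold change -0.97, SE 0.35, adjusted p = 0.064). It was called lower by DESeq2 (adjusted p = 0.0245), and in edgeR without a count filter (adjusted p = 5.3e-04), without FL library 1 (-1.17, adjusted p = 0.034) and without FL library 2 (-1.15, adjusted p = 0.035). Mcoln1 encodes TRPML1, the calcium channel of the lysosomal membrane whose current activates TFEB through calcineurin. It had 30.0, 36.9, 25.1 and 31.7 CPM in KO libraries and 31.3, 30.4, 28.5 and 24.4 CPM in FL libraries. The groups overlapped (log2 fold change 0.11, SE 0.14, adjusted p = 0.59), and only under total counts was it called, at 0.69 (adjusted p = 0.0093).

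Exonic length was taken from GENCODE M21 as all bases covered by an exon of any transcript of the gene. It can exceed the length of the transcripts present in these cells, so the order of genes per kb depends on it. Per kb of this length, the levels of the 31 genes differed widely. Ctsz was the highest in both groups, at 347 CPM per kb in KO and 799 CPM per kb in FL. In KO the level per kb of Hexa followed, at 253 CPM per kb (392.02 in FL), then Psap, at 201 CPM per kb (219 in FL), whereas in FL the level per kb of Lamp1 was next, at 512 CPM per kb (189 in KO). Lgmn, with 0.514 CPM per kb in KO and 2.82 in FL, Tfeb, with 0.676 in KO and 1.32 in FL, and Npc1, with 1.34 in KO and 1.04 in FL, were the lowest. Within KO, library 4 was the highest of the 4 in 25 of the 31 genes (80.6%), against 29.3% of all tested genes. The sum of the 31 genes without TMM factors was 8140, 8804, 8673 and 10743 CPM in KO libraries and 12251, 12159, 11641 and 9022 CPM in FL libraries, so that on this scale KO library 4 lay above FL library 4.

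Several of these counts can include reads of another gene, because no source used here gives the strand setting. Overlaps on the opposite strand exist for 10 of the 31: Atp6v0b, Atp6v1b2, Ctsa, Ctsb, Ctsc, Ctsl, Ctsz, Hexa, Lamp1 and Npc1. Ctsd, Ctsl, Ctss and Glb1 overlap a gene on the same strand. Atp6v0c and Cd63 have pseudogene copies in the table with which reads may be shared.

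The rest of the lysosomal system was read from 7 further lists with 142 genes, of which 138 were tested. Of these, 39 were lower in KO (28.3%) and 11 higher (7.97%) under TMM, against 14.9% and 13.0% of all tested genes. After loess normalisation 14 were lower (10.1%) and 12 higher (8.70%), against 11.2% and 11.0% of all tested genes, and under total counts 6 were lower (4.35%) and 70 higher (50.7%), against 5.09% and 51.7%. The excess of lower calls over the background was thus seen under TMM and not under the other 2 scalings. Under TMM the share of all tested genes called lower rose with level, from 9.08% under 50 CPM to 86.8% at 500 CPM or more. For these lists the share among genes of like level was not computed, so their TMM shares cannot be read against 14.9% alone. Among 35 other hydrolases, 11 were lower (31.4%) and 4 higher (11.4%), the second share near the background, and 8 were lower and 5 higher after loess normalisation. Smpd1, acid sphingomyelinase, fell to 36.3 to 50.5 CPM in KO, against 73.8 to 95.8 CPM in FL (log2 fold change -0.99, adjusted p = 3.8e-04), and Hgsnat, an enzyme of heparan sulfate breakdown, had -0.99 (adjusted p = 9.0e-04). Ctso, a little-studied cathepsin, rose to 42.9 to 54.3 CPM in KO, against 17.4 to 26.2 CPM in FL (1.13, adjusted p = 4.8e-04), and Hyal2, a hyaluronidase, had 1.04 (adjusted p = 8.6e-04). In these 4 genes the groups did not overlap, and the calls held after loess normalisation. Under total counts Smpd1 and Hgsnat were at -0.41 each and lost their calls (adjusted p = 0.058 and 0.076).

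Of 26 other membrane proteins and transporters, 8 were lower (30.8%) and 1 higher (3.85%) under TMM. There were 3 lower and 1 higher after loess normalisation, and 3 lower and 14 higher under total counts. Gpnmb, a glycoprotein of melanosomes and macrophage lysosomes, had 0.19, 0.63, 0.68 and 0.55 CPM in KO libraries and 10.9, 6.92, 11.1 and 3.999 CPM in FL libraries. It was nearly absent from KO (log2 fold change -4.01, SE 0.44, adjusted p = 1.6e-04). Laptm5, a membrane protein of blood cell lysosomes, had -1.04 (-0.10 after loess normalisation, not called), Mfsd1, a transporter of the lysosomal membrane, had -0.60, and the nucleoside transporter gene Slc29a3 was higher, at 0.87. Of 12 other V-ATPase genes, 5 were lower (41.7%) and 0 higher by edgeR, with Atp6ap1, Atp6ap2, Atp6v0e and Atp6v1f at -0.66, -0.63, -0.50 and -0.54. After loess normalisation in limma-voom, 0 of 12 were lower and 1 was higher. Of 22 genes of the MiT/TFE family and nutrient sensing, 3 were lower (13.6%) and 4 higher (18.2%), close to the shares of all tested genes. After loess normalisation in limma-voom 0 were lower and 3 higher, and under total counts in edgeR 0 were lower and 15 higher. Tfec, a relative of TFEB expressed in myeloid cells, rose to 136 to 172 CPM in KO, against 81.6 to 102 CPM in FL (0.79, SE 0.12, adjusted p = 7.2e-04; 1.05 after loess normalisation). The Ragulator genes Lamtor5 and Lamtor1, which anchor mTORC1 to the lysosome, had -0.43 and -0.58, and Rragd, a Rag GTPase, had 2.59 at under 1 CPM in every library.

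Of 22 genes that deliver enzymes or cargo to lysosomes, 8 were lower (36.4%) and 2 higher (9.09%) under TMM. There were 1 lower and 2 higher after loess normalisation, and 0 lower and 10 higher under total counts in edgeR. The small GTPase gene Rab7, the cation-dependent mannose 6-phosphate receptor gene M6pr and the endosomal gene Litaf had -0.69, -0.44 and -0.78, and the other mannose 6-phosphate receptor gene, Igf2r, had 3.61 with 1.10 to 4.61 CPM in KO and 0.04 to 0.30 CPM in FL. Of 16 autophagy genes, 2 were lower (12.5%, no more than the 14.9% of all tested genes) and 0 higher by edgeR: Wipi1, which binds the forming autophagosome, had -1.20 and Gabarap, a membrane tag of autophagosomes, had -0.38, while Ulk1 (0.34) and Becn1 (-0.28) were not called. Of 5 tested cystatins and related inhibitors, 2 were lower and 0 higher by edgeR: Cst3, cystatin C, an inhibitor of the cathepsins, had -1.07, and Cst7, cystatin F, had -1.48. Stfa1 (2.48, adjusted p = 0.069) and Serpinb6a (-0.34) were not called. With that covariate, genes named here as called lost their calls except for Slc29a3. The calls of Mfsd1, Atp6ap1, Atp6ap2, Atp6v0e, Atp6v1f, Lamtor5, Lamtor1, Rab7, Litaf, M6pr and Gabarap were lost both under total counts and after loess normalisation, and those of Laptm5, Rragd and Cst3 after loess normalisation. Under total counts Atp6v0e, Atp6v1f, Lamtor5, Lamtor1, M6pr and Gabarap turned to 0.10, 0.04, 0.16, 0.0091, 0.15 and 0.23, and after loess normalisation M6pr and Atp6ap2 turned to 0.16 and 0.06. Without KO libraries 2 and 3, the calls of Atp6ap1, Atp6v0e, Atp6v1f, Lamtor5, Rragd, Litaf, M6pr and Gabarap were lost. Cst7 also lost its call without KO library 2, and Gabarap without any of KO libraries 1, 2 and 3 and FL libraries 2 and 4. Under total counts, the list medians were 0.25 to 0.63, against -0.34 to 0.05 under TMM. Hyal2, Lamtor1, Rragd, Igf2r, Rab7, Litaf, Becn1 and Serpinb6a overlap genes on the opposite strand.

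**Figure D5:**
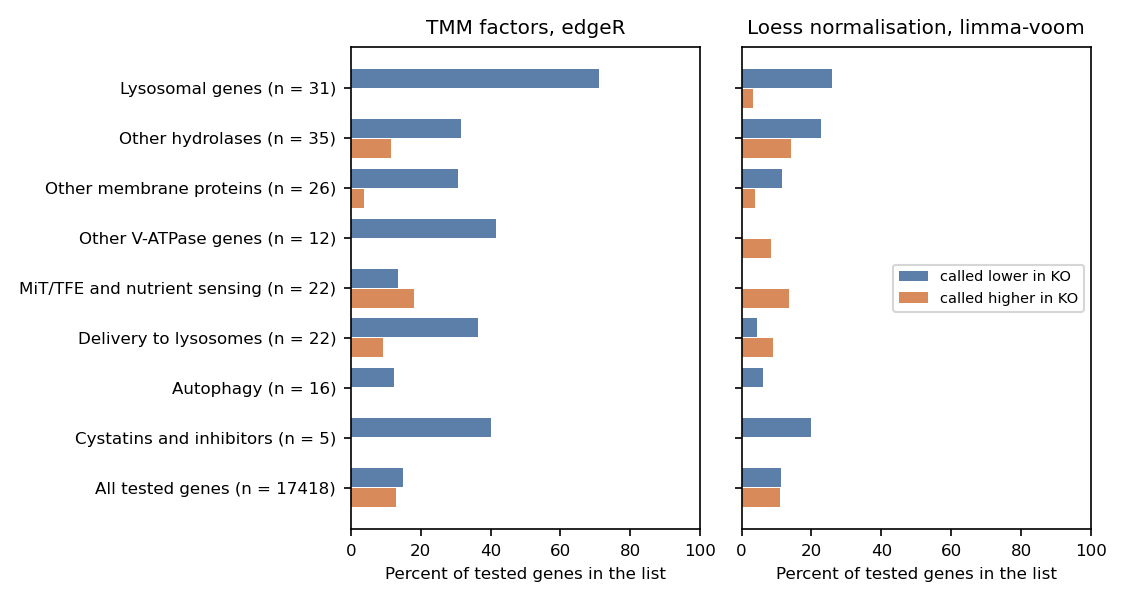
Percent of tested genes called lower (blue) and higher (orange) in KO in the 31 lysosomal genes, the 7 further lists and all tested genes, under TMM factors (left) and after loess normalisation (right). The 31 genes have 71.0% lower at left and 25.8% at right, beside 14.9% and 11.2% of all tested genes, and the V-ATPase list has no gene called lower at right.

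Markers of other cell types differed between libraries, and their part in the lysosomal values was not tested. For each list below, the background is 13.0% higher and 14.9% lower among all tested genes. Of 14 macrophage genes, 5 passed the count filter, with 2 lower and 2 higher, and the summed level was 23.05 to 64.5 CPM in KO and 66.3 to 148 CPM in FL. Most of that sum was Adgre1, the gene for F4/80, with 17.3, 17.6, 29.3 and 57.0 CPM in KO libraries and 105, 143, 57.7 and 115 CPM in FL libraries. KO library 4, the highest KO library for most lysosomal genes, was also the highest for Adgre1. The same held for the sums of mast cell and basophil, dendritic cell, B cell, and stromal and endothelial genes. It did not hold for the sums of monocyte, late neutrophil, eosinophil, erythroid, megakaryocyte, T or NK cell, or progenitor and granule genes. Of 10 monocyte genes, 2 were lower and 2 higher, with sums of 3368 to 4404 CPM in KO and 4282 to 8179 CPM in FL, and Ly6c2, a surface marker of inflammatory monocytes, had a log2 fold change of -1.35 (adjusted p = 0.0018). The other abundant monocyte genes were not called: F13a1, a clotting factor subunit, was at 0.84 (adjusted p = 0.074; 748 to 1413 CPM in KO and 353 to 1013 CPM in FL) and Irf8, a transcription factor, at -0.35 (adjusted p = 0.16). Of 4 tested mast cell and basophil genes 1 was lower and 1 higher, with sums of 30.5 to 57.3 CPM in KO and 90.1 to 231 CPM in FL, and Cpa3, a mast cell protease gene, had 1.28 to 8.06 CPM in KO and 65.1 to 208 CPM in FL. Ms4a2, a subunit of the IgE receptor, was higher at 1.82 (adjusted p = 0.0030), with 1.39 to 4.39 CPM in KO and 0.710 to 0.821 CPM in FL, and Mcpt8, a basophil protease gene, was not called at 0.33 (adjusted p = 0.24). Of 8 tested eosinophil genes 6 were higher and 1 lower, with sums of 287 to 1348 CPM in KO, highest in KO libraries 2 and 3, and 121 to 227 CPM in FL.

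Late neutrophil genes had sums of 372 to 2666 CPM in KO, the highest in library 3, and 223 to 877 CPM in FL (3 higher and 1 lower of 12). The sums of 8 dendritic cell genes (7 tested, 1 higher, 0 lower by edgeR) were 53.3 to 59.8 CPM in KO and 46.4 to 61.6 CPM in FL, those of 6 B cell genes (2 tested, 0 higher, 1 lower) 78.2 to 102 CPM in KO and 89.0 to 118 CPM in FL, and those of 8 stromal and endothelial genes (4 tested, 1 higher, 1 lower) 198.5 to 346 CPM in KO and 209 to 377 CPM in FL. Erythroid, megakaryocyte and T or NK cell genes stayed at sums of 4.48 to 35.1, 4.01 to 9.25 and 3.88 to 4.62 CPM in KO and 2.51 to 4.90, 7.52 to 13.6 and 1.42 to 1.77 CPM in FL. Of 5 tested erythroid genes 3 were higher and 0 lower, of 2 megakaryocyte genes 1 was higher and 1 lower, and of 3 T or NK cell genes 2 were higher and 0 lower, by edgeR, against 13.0% higher and 14.9% lower among all tested genes. The platelet gene Gp1bb was at 0 in all 8 libraries.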

How the data were processed

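RNA was extracted with a miRNeasy kit, amplified by the Geo-seq method and made into libraries with a transposase kit, per the labels' protocols. Molecular identifiers are not mentioned, so PCR copies count as reads and the depth of 33941940 to 58660705 counts per library bounds counting error only. The authors deposited raw counts per gene symbol. Per the submitters' processing notes, the tools were DESeq2, HTSeq 0.13.5 and Bowtie 0.12.9, and the build was mm10, while the sheet name names featureCounts; the tool that counted, the annotation and the strand setting were not given in the sources used here. Columns named WT were taken as FL, the only group without the knockout.

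KO and FL, 4 libraries each, were compared in R 4.3.3 with edgeR 4.0.16 (TMM factors, filterByExpr, quasi-likelihood F test, Benjamini-Hochberg adjustment over all 17418 kept genes, threshold 0.05). SE is the absolute log2 fold change over the root of F. Alternatives were DESeq2 1.42.0, limma-voom 3.58.1 with quality weights, RLE, upper-quartile and total-count scaling, no filter, the replicate number as a block, a filter of 5 CPM in 4 libraries, genes detected as a covariate, each library left out, and KO libraries 2 and 3 left out. Cyclic loess normalisation of log2 CPM and the classes of level were added after the data were seen. Each fitting step was tested on simulated data. The 31 genes and the lists were chosen with earlier results of these data known. Named from the lists were at most 4 genes by smallest p per pathway list and genes among the 3 most abundant per cell type list. Gene positions and exonic lengths came from GENCODE M21 (mm10), and promoters from RefSeq (GRCm38.p6).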

Additional observations from a re-analysis of the deposited data

Results flagged for a closer look

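In 5 of 80 groups of 4 libraries tested, 1 library stood apart from the other 3 by Dixon's test at the 95% level, which chance gives in about 1 in 20 groups, so 5 in 80 is near that rate. Ctsc was at 88.2 CPM in KO library 1, below the 104 to 107 CPM of the other KO libraries. Ctsz was at 564 CPM in KO library 4, above the 473 to 485 CPM of the others. Cd63 was at 490.0 CPM in KO library 4, above 357 to 377 CPM in the others. Ctsd was at 406 CPM in FL library 3, above 316 to 331 CPM in the other FL libraries. The share of Ctsz among protease counts was 23.6% in FL library 2, below 25.8% to 26.2% in the other FL libraries.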

How the results depend on the processing

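Of the 31 genes, 22 were lower and 0 higher. These counts became 8 and 5 under total-count scaling, 8 and 1 after loess normalisation, 0 and 0 with genes detected as a covariate, and 10 and 0 without KO libraries 2 and 3. Leaving out 1 library gave 19 to 23 lower. Over all tested genes, 2256 were higher and 2597 lower. These became 9012 and 886 under total-count scaling, 107 and 98 with the covariate, and 1000 and 1342 without KO libraries 2 and 3. The higher count was 3647 with no filter, 1368 with the stricter filter and 1459 to 2443 with 1 library left out (the lowest without KO library 2), and the lower count with 1 left out was 1938 to 2590. The median of the 31 genes minus that of all tested genes was -0.67. It was -1.56 with no filter, where many rare genes enter, -0.53 with the covariate and -0.22 after loess normalisation.

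Log2 fold changes that turned above 0 under total-count scaling were Ctsc 0.13, Gla 0.35, Glb1 0.37, Psap 0.48, Lipa 0.28, Asah1 0.079, Lamp2 3.8e-04, Atp6v0b 0.050, Atp6v0d1 0.16, Atp6v1a 0.31 and Atp6v1b2 0.17. After loess normalisation they were Hexa 0.10, Glb1 0.030, Npc2 0.050, Psap 0.57, Lipa 0.014, Lamp2 0.031, Atp6v1a 0.083 and Atp6v1b2 0.10. With the covariate they were Glb1 0.10 and Psap 0.34, and without KO libraries 2 and 3 Psap 0.012. The cause was not tested, and no other alternative turned a sign among the 31.

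Replicate numbers did not pair libraries (correlations of same-numbered deviations 0.02 to 0.05), and with the replicate block 21 genes were lower, Atp6v1b2 losing its call (adjusted p = 0.0795). The stricter filter removed Lgmn. Totals bound reads, not molecules, so the error of rare genes such as Lgmn and Tfeb is seen only as spread between libraries.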
